A study of Mus musculus with 18 samples.

Results

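The genes described here encode the nucleolar machinery that makes ribosomes, and their RNA levels were compared between mouse T-cell lymphomas, thymocytes of the same genotype before transformation and control thymocytes. They were taken from a list of 49 gene symbols chosen by function, but with earlier results of these data known. Of these 48 had a probe set of their own among 18194 genes with 1 on the array. All 48 passed the filter on dim genes, as did 14020 genes in all. Rrp12 passed it through its lymphoma signals alone. The only probe set of Mrto4, the remaining gene, is shared with pseudogenes, so no value of it is given. By role, 5 of the 48 act in transcription by RNA polymerase I, 7 in small nucleolar ribonucleoproteins (snoRNPs), 13 in the small-subunit processome, 4 in late maturation of the small subunit and 15 in assembly of the large subunit, and 4 are abundant nucleolar proteins with several roles.

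Ribosomes are built in the nucleolus. RNA polymerase I transcribes a long precursor RNA, snoRNPs modify its bases and riboses, and the small-subunit processome folds and cuts the part that becomes the small subunit, while a separate series of factors assembles the large subunit. Output rises when cells grow, and the transcription factor Myc is known to activate many genes of this machinery.

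Total RNA of 18 mice was measured, each on an Affymetrix mouse array of its own. The lymphoma group held 8 CD4Cre-Ctnnbex3 mice with lymphoma, the before-transformation group held 5 mice of the same genotype whose T cells had not yet transformed, and the control group held 5 mice. In CD4Cre-Ctnnbex3 mice the Cre recombinase is driven by regulatory sequences of Cd4, a gene of T-lineage cells, and acts on an allele of the beta-catenin gene from which an exon can be removed, which stabilises the protein. Controls are LckCre mice in the study's design text and wild type in the sample labels. That conflict was not settled, and neither strain, sex nor age is given. Thymocytes or tumour masses were collected. The design text calls the mice independent, so the p-values below measure the spread between mice, but lymphomas and thymocytes differ in tissue form as well as in stage.

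The deposited values are linear probe-set intensities, called signals below. Array medians lay between 125 and 166, and none of the members' values was blank. Each gene is represented by its brightest probe set, and differences are given on the log2 scale with the standard error (SE). An adjusted p is limma's with Benjamini-Hochberg adjustment over all 14020 genes, and a gene is said to rise or fall where it was under 0.05. Signals of different probe sets are not compared with each other. Of 10 T-lineage markers 8 were measured, none at the floor, and their summed signal was 17716 to 29830 in lymphomas, 41109 to 63687 before transformation and 49794 to 54935 in controls. The lymphoma arrays also had lower means of the hybridisation control probe sets (9.95 to 10.68 on the log2 scale, against 10.74 to 11.24 on the other arrays). The log2 signal of the 3′ minus the 5′ probe set of Actb, a measure of RNA quality, was 0.12 to 0.26 in lymphomas, 0.05 to 0.13 before transformation and 0.06 to 0.21 in controls. For Gapdh the same measure overlapped between groups: -0.22 to -0.10 in lymphomas, -0.18 to -0.002 before transformation and -0.27 to -0.02 in controls. The part of these measures in the results was not tested. The female-expressed gene Xist and the Y-linked gene Eif2s3y gave male signals in lymphoma 3 and in the whole before-transformation group, female signals in 6 lymphomas and in controls 1 and 2, and both in lymphoma 4. Mice numbered 1 and 2 stood apart from the rest in the lymphoma group and in the controls, so counts are also given within each set of numbers.

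The motif CACGTG, an E-box that Myc with its partner Max is known to bind, was searched in the RefSeq promoters of the members (GRCm38.p6, 250 bases before to 50 after the start of the gene). CACGTG reads the same on both strands, so 1 search covers both. Promoters were at hand for 43 of the 48 members, and 12 of these (27.9%) held the motif, against 8.09% of 27025 genes with a promoter in the same table and 8.91% of 17492 protein-coding genes. These 12 were Grwd1, Imp4, Ltv1, Mybbp1a, Nle1, Nop2, Pes1, Rrn3, Tsr1, Utp18, Utp20 and Wdr43. The promoters of the 4 of them with the largest rise in lymphoma against before transformation are shown because they carry that motif in its context. Each is written 5′ to 3′ on the strand of its gene, with CACGTG in capitals.
Tsr1, chr11:74897830-74898129, plus strand: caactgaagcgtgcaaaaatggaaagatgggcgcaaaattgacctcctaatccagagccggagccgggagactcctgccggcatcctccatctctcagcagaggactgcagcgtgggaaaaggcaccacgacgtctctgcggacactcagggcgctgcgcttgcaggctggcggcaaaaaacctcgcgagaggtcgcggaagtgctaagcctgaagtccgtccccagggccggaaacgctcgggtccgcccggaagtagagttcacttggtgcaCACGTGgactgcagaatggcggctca
Nop2, chr6:125131633-125131932, plus strand: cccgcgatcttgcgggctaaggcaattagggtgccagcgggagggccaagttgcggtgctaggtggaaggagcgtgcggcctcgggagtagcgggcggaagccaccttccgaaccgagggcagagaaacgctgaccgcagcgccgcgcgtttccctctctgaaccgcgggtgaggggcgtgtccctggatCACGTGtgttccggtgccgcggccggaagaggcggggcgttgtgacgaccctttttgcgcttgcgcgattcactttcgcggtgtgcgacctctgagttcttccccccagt
Utp20, chr10:88826765-88827064, minus strand: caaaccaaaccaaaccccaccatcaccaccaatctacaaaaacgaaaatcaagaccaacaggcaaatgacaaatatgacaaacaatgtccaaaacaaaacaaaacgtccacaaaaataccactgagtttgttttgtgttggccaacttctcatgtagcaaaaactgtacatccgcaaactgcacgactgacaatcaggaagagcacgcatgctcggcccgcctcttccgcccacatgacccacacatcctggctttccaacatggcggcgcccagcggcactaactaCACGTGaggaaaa
Pes1, chr11:3963725-3964024, plus strand: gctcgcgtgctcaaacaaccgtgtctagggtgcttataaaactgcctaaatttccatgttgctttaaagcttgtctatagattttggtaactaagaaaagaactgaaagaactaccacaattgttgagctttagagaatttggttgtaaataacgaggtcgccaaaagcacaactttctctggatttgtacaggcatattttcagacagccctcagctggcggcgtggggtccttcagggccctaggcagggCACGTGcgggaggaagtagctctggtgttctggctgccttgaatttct
The motif begins 24 bases after the gene start in Tsr1, 37 after it in Utp20 and 2 after it in Pes1, and 60 bases before it in Nop2. By the brightest probe sets, the median log2 difference between lymphoma and before transformation was 0.89 over the 12 genes with it (9 rose). It was 1.0 over the 31 without it (25 rose). This split was not tested and depends on the probe set. Grwd1, which holds the motif, enters at 0.03, while its other probe sets gave 1.76 and 1.46. A match describes the letters of this window only. The motif ATCAAAG, the core bound by the TCF and LEF partners of beta-catenin, was added after this search and cannot overlap CACGTG. It was found, on either strand, in 1 of the 43 promoters (2.33%, in Noc4l) and in 4.29% of the 27025 genes.

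Lymphomas had higher RNA levels of most of the machinery than thymocytes before transformation. Of the 48 genes 39 rose, 1 fell (Ubtf) and 8 did not pass the test, while 16% of all genes tested rose and 18.3% fell. The median log2 difference was 0.98 over the 48 genes and -0.03 over all genes. In 32 genes every lymphoma lay above every mouse before transformation, and in none did every lymphoma lie below, which was so for 6.67% and 8.84% of all genes. The 39 and the 32 include Rrp12, which was tested only because of its lymphoma signals. By role, rises were counted in 3 of 5 polymerase I genes, 7 of 7 snoRNP genes, 9 of 13 processome genes, 3 of 4 late small-subunit genes, 14 of 15 large-subunit genes and 3 of 4 abundant nucleolar proteins. The share of all genes that rose or fell depends on the scaling: it was 22.7% and 15.8% after quantile normalization, and 19.6% and 13.9% with each array centred on its median.

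**Figure D1:**
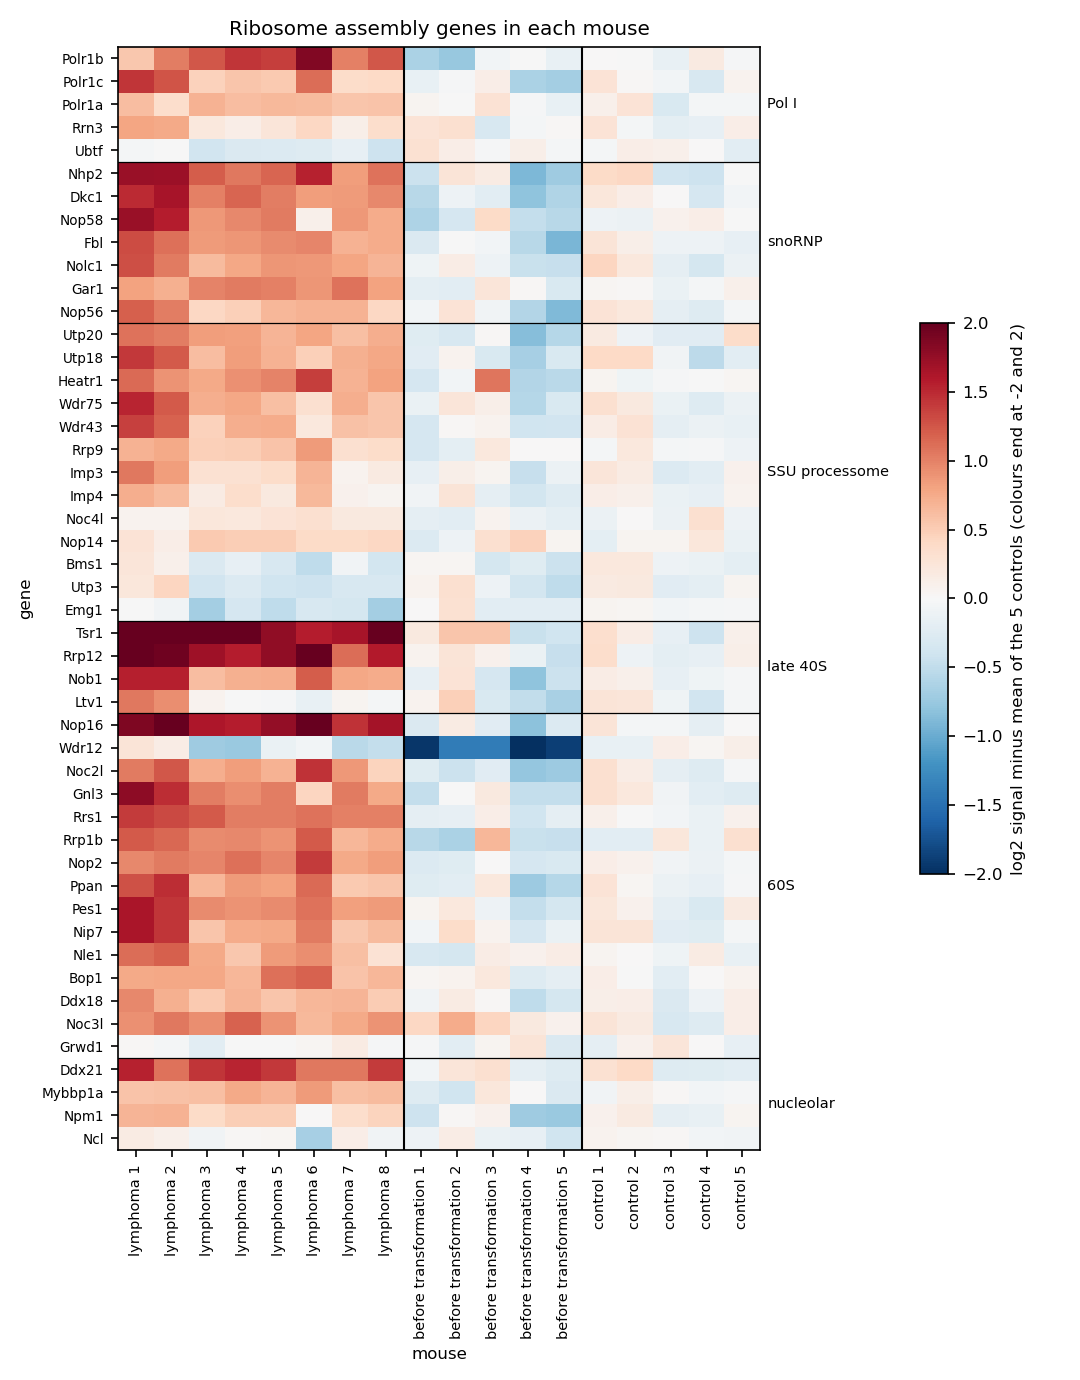
Each row is 1 of the 48 genes, grouped by role, and each column 1 of the 18 mice. Colour gives the log2 signal minus the mean of the 5 controls, with colours ending at -2 and 2. The lymphoma columns are red in most rows, Wdr12 is blue in all 5 mice before transformation, and Ubtf, Emg1, Utp3, Bms1, Grwd1 and Ncl stay pale in lymphomas.

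Among the genes of RNA polymerase I transcription, Polr1b and Polr1c differed most by the brightest probe sets. Polr1b encodes a large catalytic subunit of the enzyme. Its signal had a lowest, median and highest value of 248, 405 and 619 in the 8 lymphomas, against 110.2, 101, 164, 169.8 and 155 in the 5 mice before transformation and 173, 169.9, 154, 193 and 168 in the 5 controls. All lymphomas lay above both other groups, and the difference from before transformation was 1.54 ± 0.20, a 2.90-fold rise (adjusted p = 5.76e-05). Polr1c, a subunit shared with RNA polymerase III, gave 503, 565 and 1046 in lymphomas (lowest, median and highest), 352, 384, 426, 249 and 242 before transformation and 468, 396, 376, 312 and 410.2 in controls. Its groups did not overlap between lymphoma and either other group, and it rose by 1.04 ± 0.21 against before transformation (adjusted p = 0.00207). Polr1a, the largest subunit, rose by 0.55 ± 0.10 by its brightest probe set. Dimmer probe sets of Polr1a rose by 2.00 ± 0.12 and 1.93 ± 0.15, more than Polr1b or Polr1c.

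The factors that bring the polymerase to its promoter differed less. Rrn3 links the polymerase to the promoter complex, and its signals were 431, 488 and 688 in lymphomas, 482, 495, 319.8, 387 and 402 before transformation and 479, 387, 348, 355 and 434 in controls. Lymphomas overlapped both groups, and the difference of 0.33 ± 0.15 from before transformation did not pass (adjusted p = 0.108, 95% interval 0.00 to 0.65). Rrn3 did pass after quantile normalization (0.41, adjusted p = 0.0391), with mouse number as a replicate block (0.37, 0.0266), with mice 1 and 2 against the rest as a block (0.40, 0.0023) and within mice 3 and up (0.36, 0.0271). Ubtf binds the ribosomal DNA as an architectural factor, and it was the single member that fell. Its signals were 737, 814 and 976 in lymphomas, 1207, 1074, 964, 1059 and 954 before transformation and 949, 1075, 1054, 988 and 842 in controls. The highest lymphoma lay above the lowest mouse before transformation, and the difference was -0.33 ± 0.10 (adjusted p = 0.022). Without before-transformation mouse 1 it was -0.28 and no longer passed (adjusted p = 0.0676), and after quantile normalization it was -0.23 (0.0547).

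All 7 snoRNP genes rose. Nhp2 is a core protein of the box H/ACA particles that turn uridine into pseudouridine. Its lymphoma signals were 1412, 1813 and 2621 (lowest, median and highest), against 589, 946, 891, 423 and 487 before transformation and 1038, 1053, 609, 597 and 786 in controls. No lymphoma overlapped either group, and the gene rose by 1.61 ± 0.21 or 3.06-fold (adjusted p = 6.67e-05). Dkc1, the pseudouridine synthase of the same particles, had 1097, 1236 and 1912 in lymphomas, 418, 567, 530.2, 350.3 and 403 before transformation and 719, 673, 617, 487 and 590.2 in controls. It too was separate in all lymphomas and rose by 1.58 ± 0.16 against before transformation (adjusted p = 9.21e-06). The smallest rise of the class was that of Nop56, a scaffold protein of the box C/D particles that methylate riboses. Nop56 gave 1395, 1668 and 2377 in lymphomas, 1004, 1261, 994, 692 and 565 before transformation and 1258, 1206, 920.0, 869 and 1021 in controls. Its lymphomas still lay above both groups, by 0.96 ± 0.19 against before transformation (adjusted p = 0.00146). The other 4 were Nop58, a second scaffold protein of these particles (1.30), Fbl, their methyltransferase (1.30), Nolc1, a chaperone of snoRNPs (1.06), and Gar1, another H/ACA protein (1.0).

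In the small-subunit processome log2 differences by the brightest probe sets lay between -0.31 and 1.22, with a median of 0.59. By these, 4 of the 13 genes did not pass. A dimmer probe set of Wdr43 rose by 1.57 ± 0.17. Utp20, a long scaffold protein, had signals of 382, 439.5 and 537 in lymphomas, 212, 202, 255, 140.1 and 169 before transformation and 285, 235, 215, 216 and 325 in controls. Lymphomas lay above both groups, and it rose by 1.22 ± 0.14 against before transformation (adjusted p = 2.37e-05). Utp18, a processome subunit with WD repeats, gave 509.9, 608 and 968 in lymphomas, 313, 382, 296, 230.2 and 296 before transformation and 483, 482, 346, 254 and 316 in controls. Here too no lymphoma overlapped, and the rise was 1.12 ± 0.16 (adjusted p = 0.000158). At the other end stood Bms1, a GTPase of the processome, with 1165, 1425 and 1964 in lymphomas, 1702, 1697, 1298, 1411 and 1227 before transformation and 1921, 1923, 1547, 1517 and 1455 in controls. Its groups overlapped throughout and the difference was 0.02 ± 0.14 (95% interval -0.27 to 0.31). Emg1, a methyltransferase that modifies the small-subunit RNA, gave 2093, 2645 and 3324 in lymphomas, 3379, 4126, 2894, 2907 and 2908 before transformation and 3493, 3461, 3228, 3278 and 3318 in controls. Its lymphoma median was below every mouse of both other groups, although the highest lymphomas overlapped them, and the difference from before transformation was -0.31 ± 0.13 (adjusted p = 0.086). It passed as lower without lymphoma 1 (-0.36, adjusted p = 0.0388), with all 3 groups in 1 fit (-0.31, 0.0422) and with mice 1 and 2 against the rest as a block (-0.24, 0.0307). Of the rest, Heatr1, Wdr75, Wdr43, Rrp9, Imp3, Imp4 and Noc4l rose by 0.32 to 1.04. Imp4, which binds the U3 snoRNA with Imp3, did not pass in every subset of mice: without before-transformation mouse 4 or 5 its adjusted p was 0.0683 or 0.0608. Nop14, a partner of Noc4l, differed by 0.29 ± 0.13 and Utp3 by -0.07 ± 0.17, and neither passed. Nop14 did pass after quantile normalization (0.39, adjusted p = 0.0446), with arrays centred on their median (0.38, 0.0142), with mice 1 and 2 against the rest as a block (0.24, 0.0333) and without before-transformation mouse 4 (0.38, 0.0347).

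Tsr1 and Rrp12, of late small-subunit maturation, were among the largest rises of all members. Tsr1 is a GTPase-like factor that occupies the unfinished subunit. Its signals were 1462, 2090.1 and 3289.5 in lymphomas, against 563, 723, 717, 358 and 373 before transformation and 618, 541, 438, 369 and 523 in controls. The lowest lymphoma had more than the highest mouse of either other group, and the rise was 1.94 ± 0.22 or 3.83-fold (adjusted p = 1.92e-05). Rrp12, which in yeast takes part in export of the subunits from the nucleus, had 168, 257 and 329 in lymphomas, 81.1, 92.3, 81.4, 70.1 and 56.2 before transformation and 97.9, 71.4, 67.2, 69.0 and 83.6 in controls. It too was separate in every lymphoma, with a rise of 1.76 ± 0.17 or 3.39-fold (adjusted p = 6.17e-06). The signals of both other groups lie near the floor of 53.5 and below the level of the filter on dim genes (109). Rrp12 was thus tested only because of its lymphoma signals. Nob1, the endonuclease that makes the final cut in the small-subunit RNA, rose by 1.28 ± 0.21. Ltv1, known in yeast as an assembly and export factor, gave 597, 672 and 1371 in lymphomas, 695, 917, 536, 470.5 and 420.3 before transformation and 792, 782, 623, 505 and 640.2 in controls. Only lymphomas 1 and 2, with 1371 and 1251, lay above both other groups, and the difference of 0.42 ± 0.24 did not pass (adjusted p = 0.197). It passed within mice 3 and up (0.47, adjusted p = 0.00511) and within mice 1 and 2 (0.72, 0.0448), as it did with the replicate block (0.58, 0.00701) and with mice 1 and 2 against the rest as a block (0.55, 0.000537).

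**Figure D2:**
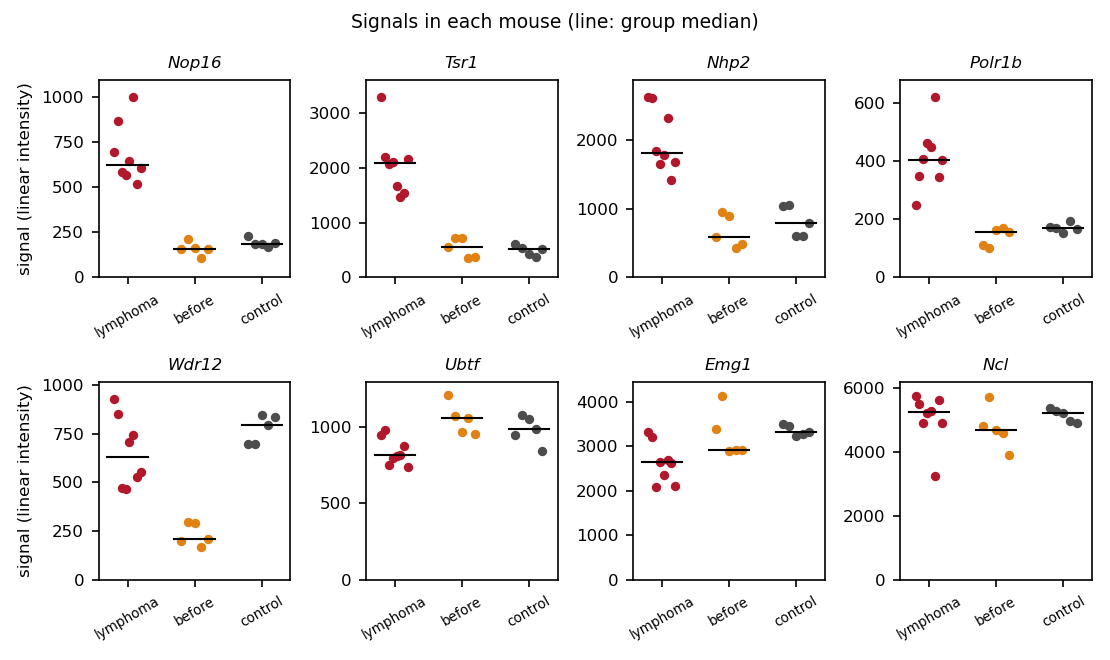
Linear signals of 8 members in each mouse (points) with the group median (line); "before" is the before-transformation group. Nop16, Tsr1, Nhp2 and Polr1b are higher in every lymphoma than in any other mouse, Wdr12 is lowest in the 5 mice before transformation, and Ubtf, Emg1 and Ncl overlap between groups.

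Assembly of the large subunit had the largest single rise by the brightest probe sets. A dimmer probe set of Tsr1, of late small-subunit maturation, rose by more (2.19 ± 0.18). Nop16, a nucleolar protein bound to early large-subunit particles, had signals of 519.7, 626 and 998 in lymphomas, 157, 213, 164, 108 and 157 before transformation and 229, 185, 185, 168 and 193 in controls. Every lymphoma was above every other mouse, and the rise against before transformation was 2.10 ± 0.18 or 4.30-fold (adjusted p = 2.51e-06). Next came Wdr12, described further below, at 1.49 ± 0.20. Its partners in the PeBoW complex, which is needed for processing of the large-subunit RNA, rose by 1.21 ± 0.16 (Pes1) and 0.83 ± 0.13 (Bop1). The methyltransferase Nop2 rose by 1.24, Rrs1, which in yeast helps to add the 5S particle, by 1.30, the GTPase nucleostemin (Gnl3) by 1.31, Rrp1b by 1.26 and Ppan by 1.22. Noc2l and Noc3l, whose yeast counterparts act in transport of the large subunit, rose by 1.39 and 0.54, and the helicase Ddx18, Nip7 and Nle1 by 0.81, 0.93 and 0.84. Grwd1, whose yeast counterpart is a chaperone of a large-subunit protein, did not pass by its brightest probe set. It gave 735, 841 and 945 in lymphomas, 831, 734, 883, 1015 and 693 before transformation and 748, 901, 999, 856 and 756 in controls, overlapping groups with a difference of 0.03 ± 0.11 (95% interval -0.19 to 0.26).

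Of the abundant nucleolar proteins, Ddx21, a helicase that links polymerase I transcription to RNA processing, gave 1156, 1479.7 and 1609 in lymphomas, 537, 657, 697, 489.7 and 467 before transformation and 687, 732, 464, 471 and 481 in controls. All lymphomas were above both groups, with a rise of 1.30 ± 0.13 (adjusted p = 9.21e-06). Mybbp1a, a nucleolar protein that binds the Myb transcription factor, had 1429, 1466 and 1731 in lymphomas, 802, 723, 1118, 962 and 786 before transformation and 915, 1040.2, 975, 920.1 and 942 in controls. Its lymphomas were also separate, and it rose by 0.80 ± 0.11 (adjusted p = 9.24e-05). Nucleophosmin (Npm1), a histone and ribosome chaperone, rose by 0.79 ± 0.15. Nucleolin (Ncl), which binds the precursor RNA, had 3241, 5246 and 5756 in lymphomas, 4806, 5706, 4692, 4599 and 3899 before transformation and 5369.8, 5262, 5212, 4951 and 4887 in controls. The groups overlapped, lymphoma 6 was the lowest of all mice, and the difference was 0.08 ± 0.13 by the brightest probe set (95% interval -0.19 to 0.36). After quantile normalization it was 0.32 and passed (adjusted p = 0.0229).

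**Figure D3:**
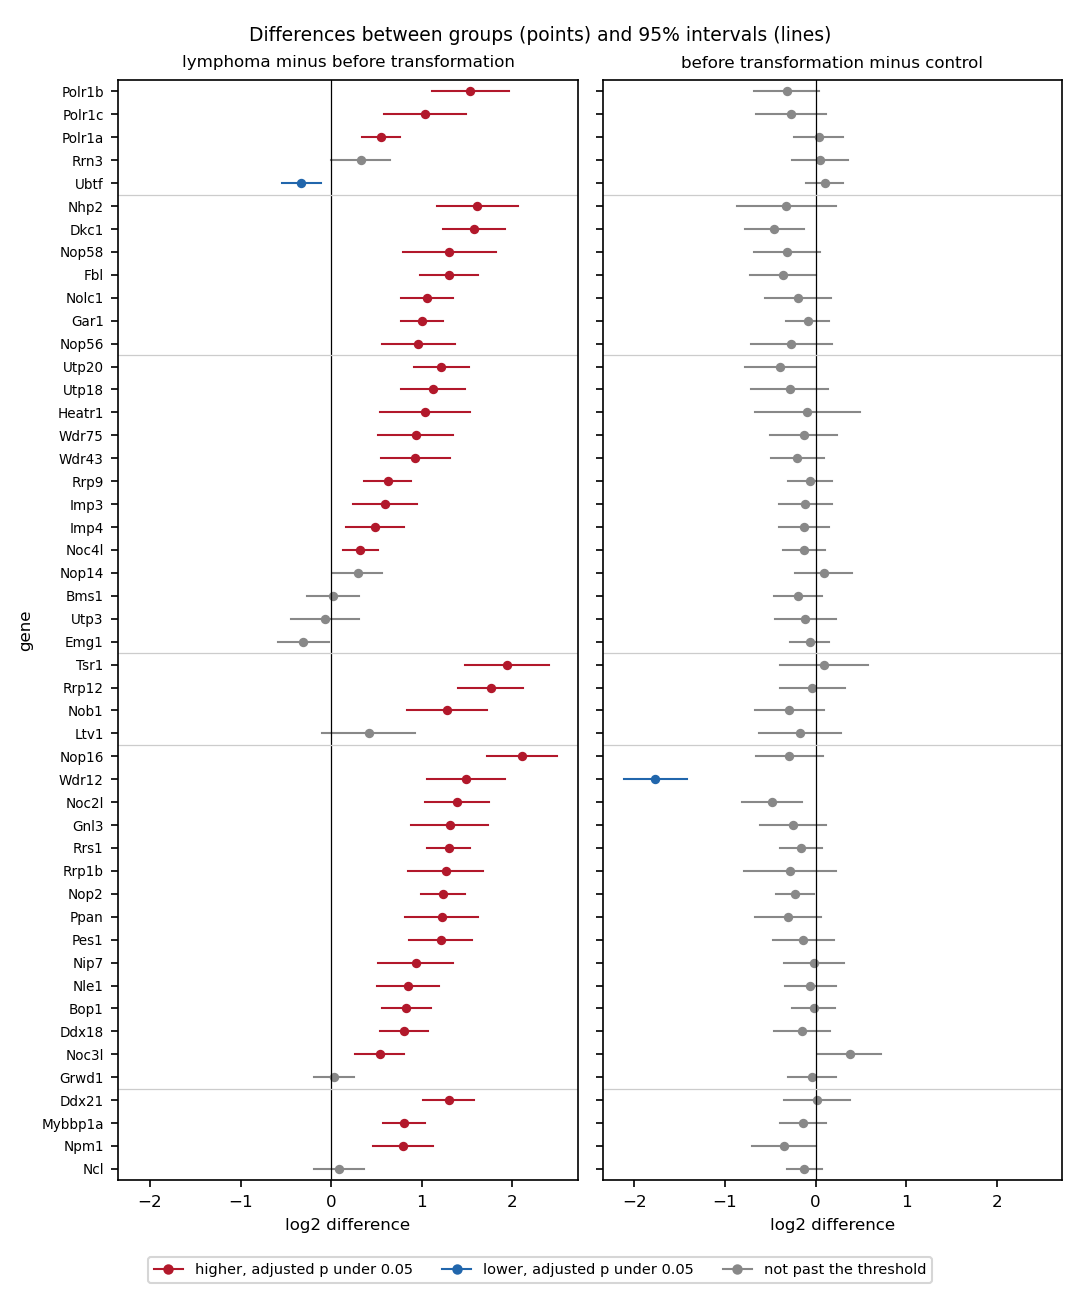
Log2 difference (points) with its 95% interval (lines) for each of the 48 genes, lymphoma minus before transformation on the left and before transformation minus control on the right. On the left 39 genes are coloured as higher and Ubtf as lower. On the right Wdr12 is coloured as lower, and 41 of the 48 points lie below 0. Over all genes tested, not drawn, 7456 of 14020 differences lie below 0.

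The counts rested on no single lymphoma. Leaving out 1 mouse at a time gave 38 to 39 genes that rose and 0 to 2 that fell. Of all genes 12.3% to 17.3% rose and 14.1% to 19.7% fell in these fits. Within mice 1 and 2 alone 36 members rose and 0 fell, with a median of 1.24, against 9.96% and 8.38% of all genes. Within mice 3 and up 41 rose and 1 fell, against 18.7% and 23%. Sex signals moved with these groups. With sex signal as a covariate and lymphoma 4 left out, 11 of the 39 still rose, in a fit that called 1.58% of all genes higher, and the median was 0.82. The 11 were Polr1b, Fbl, Dkc1, Gar1, Utp20, Tsr1, Rrp12, Nop2, Nop16, Rrs1 and Ddx21. Of these, Rrp12 was tested only because of its lymphoma signals. Lymphoma 3 was the single lymphoma with male signals alone, so the difference in that fit rests on this mouse. In it 38 of the 48 genes lay above all 5 mice before transformation, and the share over all genes was not counted. Lymphoma 3 also had the highest summed B-cell signal of all mice (4976, against 551 to 3000 in the other lymphomas) and the lowest summed T-lineage signal (17716), and their part in that fit was not tested.

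Markers of other cells also moved between these groups. All 8 T-lineage markers were lower in lymphomas than before transformation. Macrophage markers were higher in 3 of 5, with summed signals of 2796 to 9152 in lymphomas and 1158 to 2802 before transformation, and none of the 5 was at the floor on all arrays. Granulocyte markers were higher in 3 of 5 (sums of 952 to 3286 in lymphomas and 695 to 1624 before transformation), and stroma and vessel markers in 1 of 4 tested (845 to 5306 and 944 to 1790 over 6 measured). B-cell markers passed in 0 of 5, and their sums were 551 to 4976 in lymphomas and 541 to 2413 before transformation. Of 7 markers of dividing cells 1 was higher, with a median log2 difference of 0.15, and their sums overlapped (7094 to 16312 in lymphomas and 9305 to 18058 before transformation). Their part in the members' differences was not tested, and in whole-tissue RNA a change in the share of a cell type and a change of RNA per cell cannot be told apart.

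By the brightest probe sets, the machinery before transformation stood close to the controls, with 1 exception. Of the 48 genes 0 rose and 1, Wdr12, fell, while 4.36% of all genes rose and 6.18% fell. In a fit over all probe sets, 3 of 42 other probe sets of members were called where the brightest was not. These were dimmer probe sets of Nolc1 (-0.86 ± 0.20, adjusted p = 0.0164), Rrp1b (-0.88 ± 0.22, 0.0221) and Polr1a (-0.49 ± 0.14, 0.0438). The differences were small and mostly downward: the median log2 difference was -0.15, against -0.02 over all genes, and 41 of the 48 differences were below 0. Over all genes 7456 of 14020 differences were below 0. The members' median was -0.22 without before-transformation mouse 2, ran from -0.22 to -0.11 over all mice left out in turn, and was -0.06 with sex signal as a covariate. By role the medians were 0.03 for polymerase I, -0.32 for snoRNPs, -0.12 for the processome, -0.11 for late small-subunit factors, -0.16 for the large subunit and -0.13 for the abundant nucleolar proteins. The members' groups did not overlap in 1 gene (lower), against 4.32% of all genes higher and 6.24% lower.

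Wdr12 is the WD-repeat subunit of PeBoW. Its signals were 199, 294, 291, 167 and 209 in the 5 mice before transformation, against 698, 697, 846, 795 and 836 in the 5 controls. The highest mouse before transformation had less than any control, and Wdr12 fell by 1.77 ± 0.16 or 3.41-fold (adjusted p = 2.20e-05). In lymphomas the lowest, median and highest signals were 464, 629 and 927, all above the mice before transformation and overlapping the controls. The difference of -0.28 ± 0.17 from control did not pass (adjusted p = 0.211). Both of the first comparisons share the same 5 mice before transformation, so the fall and the rise of Wdr12 are not independent. A second, dimmer probe set of Wdr12 gave 54.1, 68.2, 85.7, 61.9 and 59.2 before transformation and 228, 168, 393, 246 and 183 in controls. By that probe set Wdr12 fell by 1.84 ± 0.22 before transformation against control (adjusted p = 0.000201), rose by 0.73 in lymphoma against before transformation (0.00959) and fell by 1.11 in lymphoma against control (0.00115). By the brightest probe set the difference of lymphoma from control also depended on the mice: it was -0.54 within mice 3 and up, where Wdr12 fell (adjusted p = 0.0239), and 0.35 within mice 1 and 2. Whether lymphomas reached the level of controls thus differed between probe sets and between sets of mice. The partners of Wdr12 did not follow it: Pes1 differed by -0.14 ± 0.15 and Bop1 by -0.02 ± 0.11 before transformation against control, and neither passed.

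The 4 members next in order of p did not pass. Noc2l had 399.8, 349.9, 407, 277 and 286 before transformation and 590.1, 525, 417, 396 and 465 in controls. Control 4 lay below mice 1 and 3 before transformation, with a difference of -0.48 ± 0.15 (adjusted p = 0.0668). Dkc1, whose signals are given above, differed by -0.45 ± 0.15 (0.0848). For Nop2 the signals were 384, 391, 466, 368 and 375 before transformation and 509, 489.9, 441, 428 and 452 in controls, with mouse 3 above 3 of the controls and a difference of -0.23 ± 0.10 (0.191). Noc3l was the member furthest in the upward direction, with 239, 299, 241, 204 and 189.7 before transformation and 214, 202, 143, 149 and 197 in controls, a difference of 0.37 ± 0.16 (0.199). Without before-transformation mouse 2 or 3 the number of members that fell was 2 or 4, with Dkc1 (adjusted p = 0.0324) or Noc2l (0.048) among them. Of all genes 7.13% or 6.79% fell in these fits. Granulocyte markers were lower in this comparison in 5 of 5 (sums of 695 to 1624 before transformation and 2741 to 9246 in controls), none of them at the floor on all arrays, and their part in these values was not tested.

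Against control, lymphomas again had higher levels of most members. Of the 48 genes 39 rose, 1 fell (Emg1) and 8 did not pass, against 17.4% and 22.7% of all genes that rose and fell (25.6% and 18.2% after quantile normalization, 21.6% and 17.4% after median centring). The median log2 difference was 0.82, and -0.03 over all genes. Groups were separate in 32 members, all higher, against 8.21% of all genes higher and 12% lower. Here too the 39 and the 32 include Rrp12. This comparison shares its lymphomas with the first and its controls with the second, so its values are not independent of theirs.

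The largest differences from control by the brightest probe set were those of Tsr1 (2.03 ± 0.18, 4.09-fold, adjusted p = 9.38e-07), Nop16 (1.81 ± 0.15, 5.35e-07) and Rrp12 (1.73 ± 0.16, 1.55e-06). Control signals of Rrp12 (67.2 to 97.9) lay below the filter on dim genes, so it was tested only because of its lymphoma signals. By the brightest probe set the smallest were those of Grwd1 (-0.01 ± 0.09), Ncl (-0.04 ± 0.11) and Bms1 (-0.17 ± 0.13), whose signals overlapped in all groups. Of 42 other probe sets of members, 8 were called where the brightest was not, and 8 were not called where it was. Dimmer probe sets rose by 1.45 and 1.31 for Grwd1 and by 0.51, 0.75 and 0.96 for Noc4l, whose brightest (0.20) did not pass. For Ncl, those at 0.48 and 0.54 rose, and those at 0.29 and 0.63 did not pass. Emg1 was lower in 7 of the 8 lymphomas than in any control and fell by 0.37 ± 0.11 (adjusted p = 0.0164), a call lost after quantile normalization (0.0666), after median centring (0.164) and within mice 1 and 2 (0.305). Ubtf differed by -0.23 ± 0.10 (0.0782), and passed as lower with no filter on dim genes (0.0494) and without lymphoma 1 (0.0479), lymphoma 2 (0.0396) or control 5 (0.0446). Rrn3 rose by 0.38 ± 0.14 (0.0431) and Imp4 by 0.36 ± 0.14 (0.0474), and Imp3 by 0.48 ± 0.16 (0.031). These 3 calls were lost without control 3 (0.113, 0.111 and 0.0895) or control 4 (0.103, 0.113 and 0.0813), and those of Rrn3 and Imp4 also without lymphoma 1 (0.0599 and 0.0675), lymphoma 2 (0.0627 and 0.0708), lymphoma 6 (0.0575 and 0.0741), control 2 (0.0837 and 0.0639) or control 5 (0.0526 and 0.066). Imp4 was also lost without lymphoma 4 (0.0661) or control 1 (0.0582), and Rrn3 without lymphoma 8 (0.0596). All 3 were lost after median centring too (0.068, 0.0676 and 0.0514). With sex signal as a covariate and lymphoma 4 left out, these 3 were the calls lost (0.153, 0.236 and 0.156). In that fit 12.4% of all genes rose and 18.6% fell. Here T-lineage markers were lower in 8 of 8, macrophage markers higher in 4 of 5 and lower in 1 (2796 to 9152 in lymphomas and 1711 to 3273 in controls), granulocyte markers lower in 5 of 5 (952 to 3286 and 2741 to 9246) and stroma markers higher in 3 of 4 tested (845 to 5306 and 865 to 1047), and their part in the members' values was not tested.

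By the brightest probe set, the order of the 3 group means was the same in most members. Lymphoma was highest, control next and before transformation lowest in 35 of the 48, and the last of these steps was past the test in none of the 35. The share of all genes in each order was not counted, so these counts have no share to be set against. In 6 genes (Polr1a, Rrn3, Nop14, Tsr1, Noc3l and Ddx21) before transformation lay between lymphoma and control. Control was highest in Wdr12, Grwd1, Ncl and Bms1, with before transformation lowest, and in Utp3 and Emg1, with lymphoma lowest. Ubtf was highest before transformation and lowest in lymphoma.

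**Figure D4:**
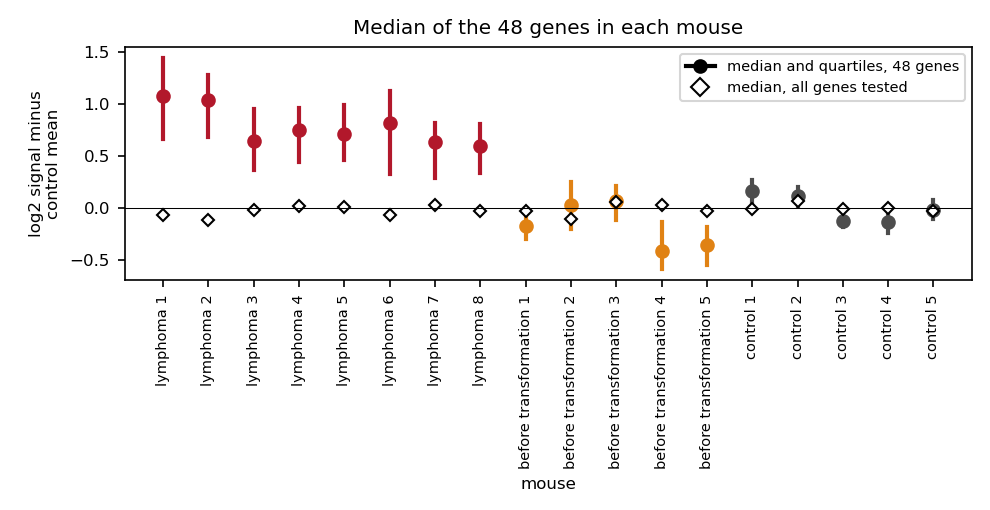
For each mouse, the median (circle) and quartiles (bar) over the 48 genes of the log2 signal minus the control mean, and the median over all genes tested (diamond). Lymphomas lie at 0.60 to 1.07, mice before transformation at -0.42 to 0.06 and controls at -0.14 to 0.17, while the diamonds stay between -0.12 and 0.06.

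Mice of 1 group differed in the median over the 48 genes. Lymphomas 1 and 2 had the highest medians over the 48 genes, 1.07 and 1.03 above the control mean on the log2 scale, while lymphomas 3 to 8 lay between 0.60 and 0.82. Controls 1 and 2, at 0.17 and 0.11, were above the other 3 controls (-0.14 to -0.02), and before-transformation mice 4 and 5, at -0.42 and -0.36, were below the other 3 (-0.17 to 0.06). Lymphomas 1 and 2 also had the lowest array medians of all mice (129 and 125), with medians over all genes of -0.07 and -0.12. Their summed stroma and vessel signals (845 and 1367) were the lowest among lymphomas. Controls 1 and 2 were the controls with female signals. The part of these in the medians was not tested. In each lymphoma 36 to 42 of the 48 genes were above all 5 mice before transformation, and 37 to 44 were above all 5 controls. The same counts over all genes were not made, so these have no share to be set against. Before-transformation mouse 3, at 0.06, was highest of its group in Heatr1 (1437, against 453 to 656 in the other 4), Rrp1b (705, against 286 to 327) and Nop58 (1121, against 566 to 685). This mouse also had the lowest summed T-lineage signal of its group (41109) and the highest summed B-cell signal (2413 over 5 markers, against 541 to 908 in the other 4), with Ms4a1, a surface protein of B cells, at 728 against 56.2 to 148. Its granulocyte sum was highest too (1624, against 695 to 1522). The part of these markers in the values was not tested.

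The spread within groups was close to that of all genes. The median standard deviation (SD) of the members on the log2 scale was 0.27 in lymphomas, 0.27 before transformation and 0.19 in controls, against 0.29, 0.24 and 0.19 over all genes. It was larger in lymphomas than in controls for 36 of the 48 genes, and larger than before transformation for 24. In lymphomas the most variable members were Nop58 (SD 0.50), Ltv1 (0.47) and Polr1c (0.43).

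Myc, which is no member, crosses this account. Its signals were 2489, 1971, 1249.85, 1866, 1612, 1946, 1946 and 1428 in lymphomas 1 to 8, 168, 199, 517, 132 and 223 in mice 1 to 5 before transformation, and 467, 437, 475, 488 and 456 in the controls. All lymphomas were above all other mice, and 4 of the 5 mice before transformation were below all controls. The difference was 3.02 ± 0.26 for lymphoma against before transformation (adjusted p = 2.59e-06) and -1.08 ± 0.29 for before transformation against control (0.0327). The order of mice by Myc and by the median over the 48 genes matched in part only. Lymphoma 1 had the highest of both, but lymphoma 3 had the lowest Myc signal and lymphoma 8 the lowest median. Before-transformation mice 3 and 4 had the highest and the lowest of both in their group. Control 4 had the highest Myc signal of its group and the lowest median.

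Other genes of the same pathway rose in a smaller share. Of 96 further ribosome assembly genes, also listed by function with earlier results known, 95 were tested. Of these 54.7% rose between lymphoma and before transformation, against 81.2% of the members and 16% of all genes. Between lymphoma and before transformation 52 rose and 6 fell, with a median of 0.53, between before transformation and control 0 rose and 6 fell (-0.11, with 6.18% of all genes lower), and between lymphoma and control 51 rose and 7 fell (0.44). Among those that rose in the first comparison were Rcl1 (1.82 ± 0.18), whose yeast counterpart takes part in cutting the precursor RNA, Ftsj3 (1.57 ± 0.20), a methyltransferase, and Mdn1 (1.37 ± 0.15), the ATPase that strips factors from the large subunit. The 6 that fell were Nat10 (-0.76 ± 0.15), which acetylates the small-subunit RNA, Utp25 (-0.74), Taf1c (-0.62 ± 0.16), part of the promoter selectivity factor of polymerase I, Ttf1 (-0.56 ± 0.18), which ends polymerase I transcription, Tsr3 (-0.54) and Ddx55 (-0.48). Before transformation, against control, the 6 that fell were Ddx54 (-0.69), Rcl1 (-0.62), Taf1c (-0.59), Polr1f (-0.56), Nop53 (-0.56) and Nop10 (-0.39).

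Several members are measured by more than 1 probe set, and these did not always give the same call. In lymphoma against before transformation 42 other probe sets of 29 genes were tested: 28 gave the call of the brightest one, 8 were not called where the brightest was, 5 were called where the brightest was not, and 1 gave the opposite call. That was Bop1, whose dimmer probe set fell by 0.60 ± 0.22 (adjusted p = 0.0402), against a rise of 0.83 by the brighter. The dimmer probe sets of Noc2l (-0.01) and Wdr75 (-0.20) and the dimmest of the 3 of Ddx18 (-0.53 ± 0.21, adjusted p = 0.0565) also had another sign than the brightest, and did not pass. For Grwd1 both other probe sets rose, by 1.76 ± 0.20 and 1.46 ± 0.18, where the brightest gave 0.03. Of the 4 other probe sets of Ncl, 3 rose, by 0.81 ± 0.20, 0.85 ± 0.23 and 1.48 ± 0.33, where the brightest gave 0.08. Polr1a rose by 2.00 ± 0.12 and 1.93 ± 0.15 by its other probe sets, against 0.55 by the brightest, and Noc4l by 0.71 to 1.24, against 0.32. The second probe set of Ubtf gave 0.03 ± 0.14, which did not pass, so its fall rests on 1 probe set.

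**Figure D5:**
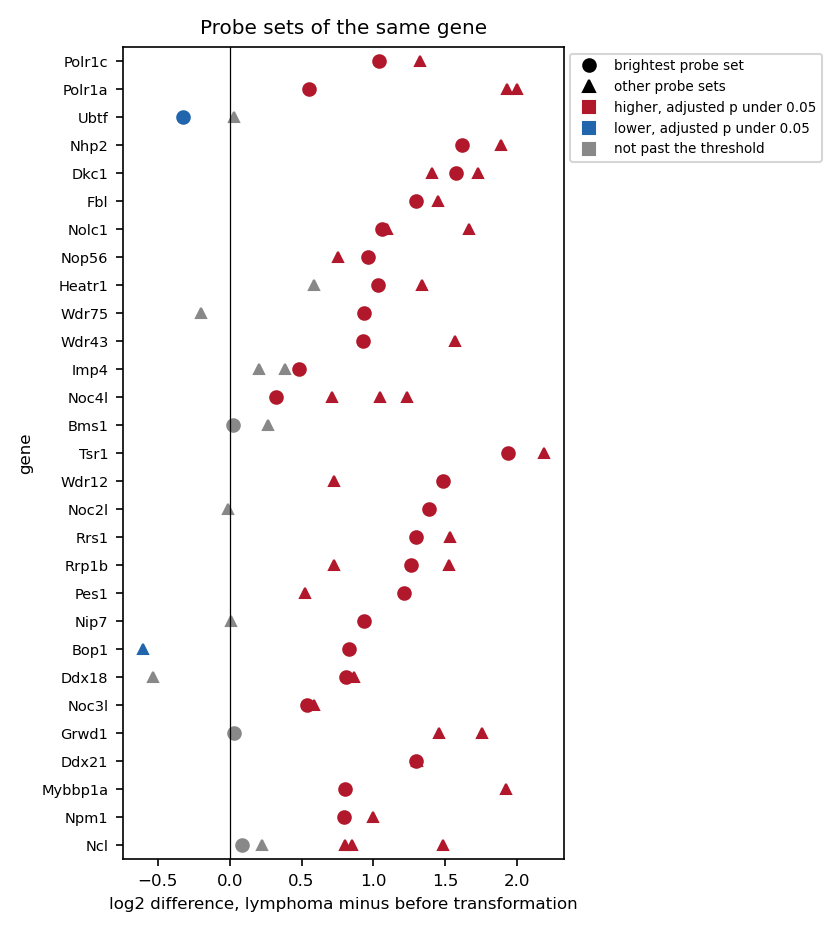
Log2 difference of lymphoma minus before transformation for the 29 genes with more than 1 tested probe set, the brightest as a circle and the others as triangles, coloured by call. Most triangles lie on the same side as their circle. Those of Grwd1, Ncl and Polr1a lie further right than the circle, and that of Bop1 lies on the other side of 0.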

How the data were processed

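The deposited values are linear probe-set intensities, and per the study's design text the authors analysed their arrays in dChip. Its version, model and scaling are not given in these sources. Total RNA of 18 mice was measured on 45101 probe sets, of which 34958 have 1 gene symbol in the platform annotation, 932 several and 9211 none. Only the first were named, with older symbols updated. Values below the 20th percentile (an intensity of 53.5, or 5.74 on the log2 scale) and blanks (1.20%) were raised to that floor, and log2 was taken. Each gene was represented by its brightest probe set by mean over all arrays, and genes above the 40th percentile (109) on at least 5 arrays were tested.

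Each comparison was fitted on its 2 groups with limma 3.58.1 in R 4.3.3 (lmFit, eBayes with an intensity trend), with Benjamini-Hochberg adjustment over all genes tested and a threshold of 0.05. The fit was tested on simulated data. Groups and mouse numbers came from the sample labels. The number of arrays limits the precision. Mouse numbers were checked as pairs: deviations of same-numbered mice correlated at -0.142 to 0.382 between before transformation and control, 0.090 to 0.408 between lymphoma and before transformation and -0.069 to 0.272 between lymphoma and control, so they were not taken as pairs and the block is an alternative. Other alternatives changed the floor, blanks, scaling, filter, probe set, trend, groups in the fit, mouse-number sets, sex signal and single mice.

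The genes, lists, markers and mouse-number sets were chosen with earlier results of these data known. All 48 measured genes may be named. Per-mouse values were given, in each role, for the largest 2 and the smallest differences between lymphoma and before transformation, for genes called against the common direction, and for the 5 smallest adjusted p before transformation against control. Promoters were read from RefSeq (GRCm38.p6) with Python 3.11.15. Markers without a probe set of their own were not used here.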

Additional observations from a re-analysis of the deposited data

Results flagged for a closer look

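In 7 of 144 combinations of gene and group the highest or lowest mouse lay far from the rest, as measured by its gap to the nearest mouse over the range of the group, on the log2 scale, against Dixon's critical value. Chance alone gives about 1 in 20. Before transformation, mouse 3 was high in Rrp1b (705, next 327, gap over range 0.849), Nop2 (466, next 391, 0.742) and Nop58 (1121, next 685, 0.722). Among lymphomas, lymphoma 6 was low in Ncl (3241, next 4900.04, gap over range 0.72), lymphoma 2 was low in Polr1a (552, next 634, 0.592) and lymphoma 1 was high in Ddx18 (1314, next 1104, 0.565). Control 2 was high in Rrp9 (651, next 552, gap over range 0.753). Of these genes, none lost its call between lymphoma and before transformation when 1 mouse was left out, and Ncl was not called with or without lymphoma 6.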

How the results depend on the processing

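Of the members called, Wdr12 in before transformation against control stayed called under every alternative run. In lymphoma against before transformation 11 of 40 did, or 38 of 40 when only single mice were left out, and in lymphoma against control 28 of 40, or 37 of 40. The cause of each change below was not tested. The number of members that fell was 1 in each comparison. Before transformation against control it was 2 with the second-brightest probe set (6.56% of all genes fell) and 3 with mouse number as a replicate block (5.97%), adding Noc2l and Dkc1. It was 4 with mice 1 and 2 against the rest as a block (8.49%) and 1 to 4 with 1 mouse left out (4.51% to 7.13%). These counts lie near the shares of all genes. In lymphoma against before transformation it was 0 after quantile normalization, with arrays centred on their median, with the mean of all probe sets, within mice 1 and 2 and with the sex covariate, 2 with all 3 groups in 1 fit or the block of mice 1 and 2 against the rest, and 0 to 2 with 1 mouse left out. Against control it was 0 after quantile normalization, after centring and within mice 1 and 2. It was 2 without a filter, with the mean of probe sets, with the second-brightest probe set and within mice 3 and up, and 1 to 2 with 1 mouse left out. Against control 14.6% to 24.2% of all genes fell in these settings. Against before transformation 8.38% to 24.7% did, apart from the sex covariate. The members that rose in lymphoma against before transformation were 11 with the sex covariate, and their median difference was 1.24 within mice 1 and 2. The replicate block gave 41 rises and 1 fall in lymphoma against before transformation, where 17.1% of all genes rose and 18.2% fell. Against control it gave 39 and 1, with 15.6% and 19.6% of all genes. Same-numbered mice did not all deviate together. All genes split into 2244 that rose and 2572 that fell in lymphoma against before transformation (3176 and 2218 after quantile normalization, 2743 and 1944 after centring), and 2434 and 3184 against control (3588 and 2555, 3022 and 2439).

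Some single genes changed sign. With the second-brightest probe set the log2 difference of lymphoma minus before transformation was 0.029 for Ubtf, -0.20 for Wdr75, -0.60 for Bop1 and -0.0092 for Noc2l. Utp3 was at 0.042 after quantile normalization, 0.013 after centring, 0.031 with the replicate block, 0.022 with the block of mice 1 and 2 against the rest and 0.13 within mice 1 and 2. Grwd1 was at -0.0083 with the replicate block, -0.019 within mice 3 and up and -0.16 with the sex covariate, where Bms1 was at -0.094. With 1 mouse left out Bms1 ran from -0.040 to 0.078, Utp3 from -0.17 to 0.041 and Grwd1 from -0.031 to 0.11. Against control, with the second-brightest probe set, values were 1.45 for Grwd1, 0.48 for Ncl, 0.32 for Ubtf, 0.015 for Bms1, -0.36 for Wdr75, -0.41 for Bop1 and -0.26 for Noc2l. With the mean of probe sets they were 0.92 for Grwd1, 0.38 for Ncl and 0.046 for Ubtf. Quantile normalization gave 0.13 for Grwd1 and 0.10 for Ncl, and centring 0.073 and 0.039. Ncl was at 0.052 with the replicate block, and within mice 1 and 2 Utp3 was at 0.14, Wdr12 at 0.35, Grwd1 at 0.035 and Ncl at 0.081. With 1 mouse left out Grwd1 ran from -0.053 to 0.051 and Ncl from -0.072 to 0.047. These genes lie near 0 or differ between probe sets. Signals near the floor limit what dim probe sets show.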
